A study of Mus musculus with 12 samples.

Results

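The genes described here are those that mouse trophoblast makes in large amounts and that few other tissues use: 26 genes of the placental prolactin family (Prl2 to Prl8), 13 pregnancy-specific glycoprotein genes (Psg), the 5 genes Ceacam11 to Ceacam15, and Tpbpa and Tpbpb. They were chosen by symbol alone, and make up 46 of the 20632 genes counted in each library. The libraries, however, were made from gonadal (peri-uterine) white fat of pregnant mice at stage E17.5 (the embryonic day), the maternal fat pad beside the ovaries and uterus. The 12 libraries fell into 3 groups of 4. WT vehicle animals carried the genotype given as Tnfrsf11a (Rank) Foxn1 Cre- and received vehicle. KO vehicle animals were Tnfrsf11a (Rank) Foxn1 Cre +, labelled as a knockout, and received vehicle. KO Treg animals had that knockout genotype and the treatment labelled Treg. Foxn1 drives expression in thymic epithelium, and where Cre was active in these animals was not tested. All 12 dams were pregnant, including the controls, and no label used here gives strain, age, litter or the genotype of the fetuses. Each library bears its own number, taken as 1 animal each. Since nothing else states where the animals came from, p-values measure the spread between these libraries.

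The mouse placenta is built of layers that can be told apart by such genes. The maternal side is decidua, followed by trophoblast giant cells, the spongiotrophoblast with its glycogen cells, and the labyrinth in which maternal and fetal blood run side by side. Prolactin-family proteins are hormones secreted by giant cells, spongiotrophoblast and decidua. Placental lactogens among them act on the maternal prolactin receptor, which signals through Jak2 and Stat5. Psg proteins are secreted members of the immunoglobulin superfamily, made by spongiotrophoblast and giant cells, and Ceacam11 to Ceacam15 are their neighbours in the genome and belong to the wider carcinoembryonic antigen family. Tpbpa is the standard marker of spongiotrophoblast and glycogen cells.

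The sequence before the start of 1 well-counted gene of each family is shown. Members of every family were counted in the same libraries, and whether these sequences bear on that was not tested. Each is the 250 bases upstream of the start in RefSeq, 5′ to 3′ on the gene's own strand, from the RefSeq promoter table for GRCm38.p6. The GENCODE gene spans given with the counts can start earlier: they hold all 250 bases of the Prl3b1 stretch, 48 of Tpbpa, 43 of Ceacam11 and 0 of Psg23. Capitals mark matches on either strand to the TATA box letters TATAAA, the GATA letters GATAA and the AP-1 letters TGANTCA. Tpbpa lies on the minus strand and its stretch is chr13:60941937-60942186. That of Prl3b1 is chr13:27242180-27242429 on the plus strand, that of Ceacam11 is chr7:17971917-17972166 on the plus strand, and that of Psg23 is chr7:18616502-18616751 on the minus strand. Psg16, the most counted Psg gene after Psg23, has no entry in the table.
Tpbpa: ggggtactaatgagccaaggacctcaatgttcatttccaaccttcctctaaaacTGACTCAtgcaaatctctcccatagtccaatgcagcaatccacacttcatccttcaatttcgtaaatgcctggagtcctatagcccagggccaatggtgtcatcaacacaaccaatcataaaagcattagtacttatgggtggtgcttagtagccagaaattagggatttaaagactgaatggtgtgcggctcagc
Prl3b1: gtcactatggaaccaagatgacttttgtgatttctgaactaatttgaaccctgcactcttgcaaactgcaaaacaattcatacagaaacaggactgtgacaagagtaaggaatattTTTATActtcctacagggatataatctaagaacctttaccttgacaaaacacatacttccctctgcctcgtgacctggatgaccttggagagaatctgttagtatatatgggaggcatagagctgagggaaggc
Ceacam11: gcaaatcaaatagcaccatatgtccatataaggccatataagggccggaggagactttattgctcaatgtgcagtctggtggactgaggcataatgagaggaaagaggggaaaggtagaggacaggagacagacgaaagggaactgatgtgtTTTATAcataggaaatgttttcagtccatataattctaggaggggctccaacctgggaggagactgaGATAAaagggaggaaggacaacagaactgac
Psg23: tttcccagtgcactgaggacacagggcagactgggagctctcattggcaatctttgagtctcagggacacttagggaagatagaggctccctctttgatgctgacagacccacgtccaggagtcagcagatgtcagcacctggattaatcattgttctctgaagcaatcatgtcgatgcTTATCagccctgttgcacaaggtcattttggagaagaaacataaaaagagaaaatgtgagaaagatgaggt

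Of the 46 members, 37 had a promoter in that table. GATAA was present in 24 of the 37, against 22.6% of all 32851 promoters over the same length. TGANTCA was present in 12 of the 37, against 6.75% of all, and TATAAA in 5 of the 37, against 12.4%. A member was counted if any of its promoters held the letters, while the share of all was taken over single promoters. That is an unlike unit, which can raise the figure of the members. These shares are a description of letters, and the promoters are not independent of each other. The upstream sequences of Tpbpa and Tpbpb were 95.2% identical and those of Psg21 and Psg23 96.1%. The median identity was 73.8% over the 45 pairs of Psg promoters and 51.0% over the 404 pairs drawn from different families. GATAA was present in 12 of the 21 members with a promoter and at least 10 counts in all, and in 12 of the other 16. TGANTCA was present in 5 of the 21 and 7 of the 16.

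The families sit in a few clusters. In the GENCODE M21 annotation of GRCm38, the build that mm10 names, 45 members had a position, and Prl2c4 had none. On chromosome 13, 22 of the prolactin-family genes lie between 27094190 and 28151611, Prl2c2, Prl2c3 and Prl2c5 between 12790816 and 13191923, and Tpbpa and Tpbpb between 60901188 and 60941984. On chromosome 7, all 18 Psg and Ceacam members lie between 16671331 and 18821607. No other gene overlaps 40 of the 45. Tpbpb overlaps Gm49393 and Gm49391, and Prl6a1 overlaps Gm11357, on the same strand. Psg16 overlaps Gm45219, Ceacam12 overlaps Gm44613 and Ceacam13 overlaps Gm22414, on the other strand. Reads of these members could be shared with those genes.

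Depth was 5551967 to 12972655 counts per library, and levels are given as CPM, the count relative to a TMM-adjusted library total (TMM is edgeR's scaling between libraries). A count of 0 allows up to 3 counts, which is 0.241 to 0.539 CPM at these depths. Such limits cover counting error only. The libraries were fat by their markers: Adipoq, the adipocyte hormone adiponectin, ran from 3876 to 5989 CPM. A pair of libraries stood apart from the rest in the genes described here, KO vehicle 1 and KO Treg 2. The differences of Psg23 and Psg29, the number of members detected and the summed CPM of all members are given with and without them. Other group means, and the fits of members with no filter or in DESeq2, are given with them only. Psg23 and Psg29 are treated separately, because they were the only 2 members with counts in all 12 libraries.

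At least 1 count was found for 35 of the 46 members, and at least 10 counts in a single library for 20. Without Psg23 and Psg29, the other 44 members held 2943 counts over the 12 libraries. KO Treg 2 had 2044 of these, 233 CPM from 29 genes, and KO vehicle 1 had 795, 90.7 CPM from 28 genes. Together they held 96.5% of the counts, and 25 genes were detected in both. As a share of all counts this was 234 ppm in KO Treg 2 (95% interval 224 to 244, exact Clopper-Pearson, counting error only) and 95.2 ppm in KO vehicle 1 (88.7 to 102).

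In the other 10 libraries the same sum was small. It was 5, 23, 10 and 41 counts in the 4 WT vehicle libraries, or 0.402, 2.46, 1.80 and 5.19 CPM from 2, 8, 7 and 11 genes. KO vehicle 2, 3 and 4 had 16, 2 and 1 counts, and KO Treg 1, 3 and 4 had 1, 3 and 2. So WT vehicle 4, the highest of these, lay between the 2 libraries that stood apart and the lowest ones, and the animals at the low end came from all 3 groups. In bulk tissue, more cells of a type and more RNA per cell cannot be told apart.

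As group means the sum was 2.46 ± 2.01 CPM (SD, n = 4) in WT vehicle, 23.2 ± 45 in KO vehicle and 58.5 ± 116 in KO Treg. The medians ran the other way, at 2.13, 0.939 and 0.354 CPM. Both knockout groups thus overlapped WT vehicle, and their SDs exceeded their means because 1 library of 4 carried nearly all the counts in each. The numbers in the library names fall into a lower series of 8 and a higher series of 4, which the labels do not call a batch. Both libraries that stood apart are in the lower series, together with all of KO vehicle. Within the higher series the sum was 1.80 and 5.19 CPM in WT vehicle 3 and 4, and 0.466 and 0.243 CPM in KO Treg 3 and 4. Within the lower series it was 0.402 and 2.46 CPM in WT vehicle 1 and 2, and 0.118 and 233 CPM in KO Treg 1 and 2.

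**Figure D1:**
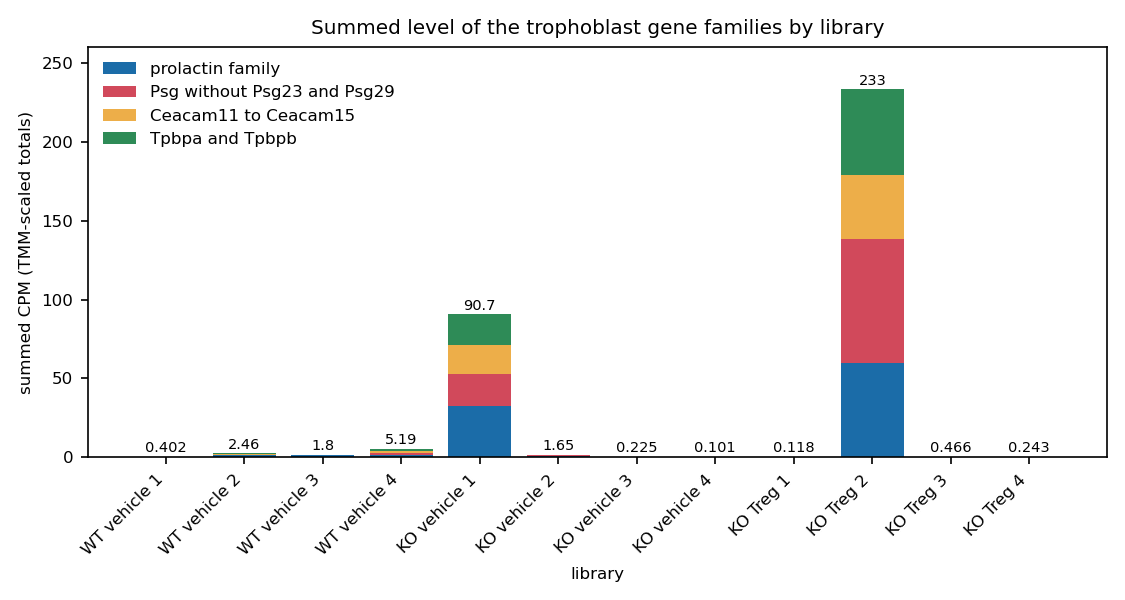
Summed CPM of the Prl, Psg (without Psg23 and Psg29), Ceacam and Tpbp genes, stacked as bars for each of the 12 libraries, on an axis that starts at 0. KO Treg 2 reaches 233 CPM and KO vehicle 1 reaches 90.7 CPM with all 4 families present, and no other library exceeds 5.19 CPM.

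All 4 families were present in both of these libraries, in different proportions. In KO vehicle 1 the prolactin family gave 35.6% of the counts, Psg without Psg23 and Psg29 23.0%, Ceacam 20.1% and Tpbp 21.3%. In KO Treg 2 the order changed: Psg gave 33.8%, the prolactin family 25.7%, Tpbp 23.2% and Ceacam 17.4%. Of the 22 members with at least 10 counts over the 12 libraries, 20 had more counts in both libraries than in each of the other 10. Most of the 22 reached that minimum only through these 2 libraries, which held 96.5% of the counts. The choice of members thus largely fixed this ranking, which is no separate result. The exceptions were Psg17, with 3 counts in both KO vehicle 1 and KO vehicle 2, and Psg19, which had 1 count in KO vehicle 1, 9 in KO Treg 2 and 2 in KO Treg 4.

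The spongiotrophoblast markers were among the most abundant. Tpbpa (chr13:60938492-60941984, minus strand) had 110 counts in KO vehicle 1 and 336 in KO Treg 2, or 12.5 and 38.3 CPM. In WT vehicle 1 to 4 it had 0, 2, 1 and 6 counts, and in the other 6 knockout libraries 0. Its close copy Tpbpb followed, with 59 counts in KO vehicle 1, 138 in KO Treg 2, 0, 2, 0 and 3 in WT vehicle 1 to 4, and 0 in the rest. Apart from the 2 high libraries, counts of both genes were thus found only in WT vehicle animals, and at 6 or fewer.

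Among the prolactin-family hormones, Prl3b1 had the most counts. It encodes placental lactogen II, the lactogen of late pregnancy, which giant cells and spongiotrophoblast make (chr13:27241847-27249683, plus strand). Prl3b1 had 84 counts in KO vehicle 1 and 218 in KO Treg 2, or 9.58 and 24.9 CPM. It had 0, 7, 0 and 4 in WT vehicle 1 to 4, and 0 in the other 6 knockout libraries. The genes of placental lactogen I, which giant cells make at mid-gestation and then replace by placental lactogen II, were nearly missing: Prl3d1 had 1 count in all, in KO vehicle 1, and Prl3d2 and Prl3d3 had 0.

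Members of the Prl8a group came next. Prl8a6 had 41 counts in KO vehicle 1 and 103 in KO Treg 2, with 0, 0, 3 and 4 in WT vehicle 1 to 4. Prl8a8, a product of spongiotrophoblast, had 56 and 83 counts in these 2 libraries, 3 in WT vehicle 4 and 4 in KO vehicle 2. Prl8a9 had 54 and 70 counts, with 0, 3, 2 and 1 in WT vehicle 1 to 4. These 3 genes were at 0 in the libraries not mentioned, so again the low counts outside the 2 high libraries were mostly in WT vehicle.

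Prl2b1 was the only prolactin-family gene with at least 10 counts that had more counts in KO vehicle 1, where it had 32, than in KO Treg 2, where it had 10. It had 3 in WT vehicle 2, 1 in WT vehicle 4 and 2 in KO vehicle 2. Prl2a1 had 4 and 14 counts in KO vehicle 1 and KO Treg 2, and 1 each in WT vehicle 3 and WT vehicle 4. Prl3a1 had 6 and 12, and 0 in all other libraries.

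The remaining 19 prolactin-family genes were at or close to the detection limit. Prl2c2, Prl2c5, Prl3d1, Prl4a1, Prl7a2, Prl7b1, Prl8a1 and Prl8a2 had 1 to 9 counts in all, and at most 5 in a library. Prl8a2, the decidual prolactin-related protein, had 2 counts in KO vehicle 2 and 3 in KO Treg 2. Prl2c1, Prl2c3, Prl2c4, Prl3c1, Prl3d2, Prl3d3, Prl5a1, Prl6a1, Prl7a1, Prl7c1 and Prl7d1 had 0 everywhere. Counts of Prl2c2 and of Prl3d1 to Prl3d3 are uncertain in any case, because these near-identical copies can share reads.

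Psg16 (chr7:17074040-17133450, plus strand) was the most counted member in KO Treg 2 outside Psg23, at 505 counts or 57.6 CPM. It had 117 counts, or 13.3 CPM, in KO vehicle 1. It had 2 in WT vehicle 2, 6 in WT vehicle 4 and 0 in the other 8. Psg21 had 13 and 56 counts in KO vehicle 1 and KO Treg 2, and 1 in WT vehicle 4. Psg27 had 19 and 37, and 0 elsewhere, and Psg26 had 8 and 35, and 1 in WT vehicle 2. The same 2 libraries were therefore on top for each of these 4 genes.

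Psg17 and Psg28 were spread a little more widely. Psg28 had 15 counts in KO vehicle 1 and 25 in KO Treg 2, with 3 in WT vehicle 1 and 1 each in WT vehicle 3, KO vehicle 2 and KO Treg 1. Psg17 had 2 in WT vehicle 1, 3, 3 and 2 in KO vehicle 1 to 3, 11 in KO Treg 2 and 1 in KO Treg 3. Psg25 had 4 and 5 counts in the 2 high libraries and 1 in KO vehicle 2. Psg18, Psg20 and Psg22 had 1 to 9 counts in all.

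Ceacam11 (chr7:17972124-17978556, plus strand) was the most counted member of KO vehicle 1 after Psg23, ahead of Psg16 and Tpbpa, and came after both of these in KO Treg 2. Its counts were 126 in KO vehicle 1 and 232 in KO Treg 2, or 14.4 and 26.5 CPM, with 3 in WT vehicle 2, 11 in WT vehicle 4 and 1 in KO vehicle 2. Ceacam12 to Ceacam15 were counted in the 2 high libraries and in no other. Ceacam12 had 16 and 67 counts, Ceacam14 12 and 39, Ceacam13 3 and 9, and Ceacam15 3 and 8. Of the 22 members, 6 were at 0 in the other 10 libraries: these 4 Ceacam genes, Prl3a1 and Psg27. Such genes entered the 22 through the 2 high libraries alone.

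**Figure D2:**
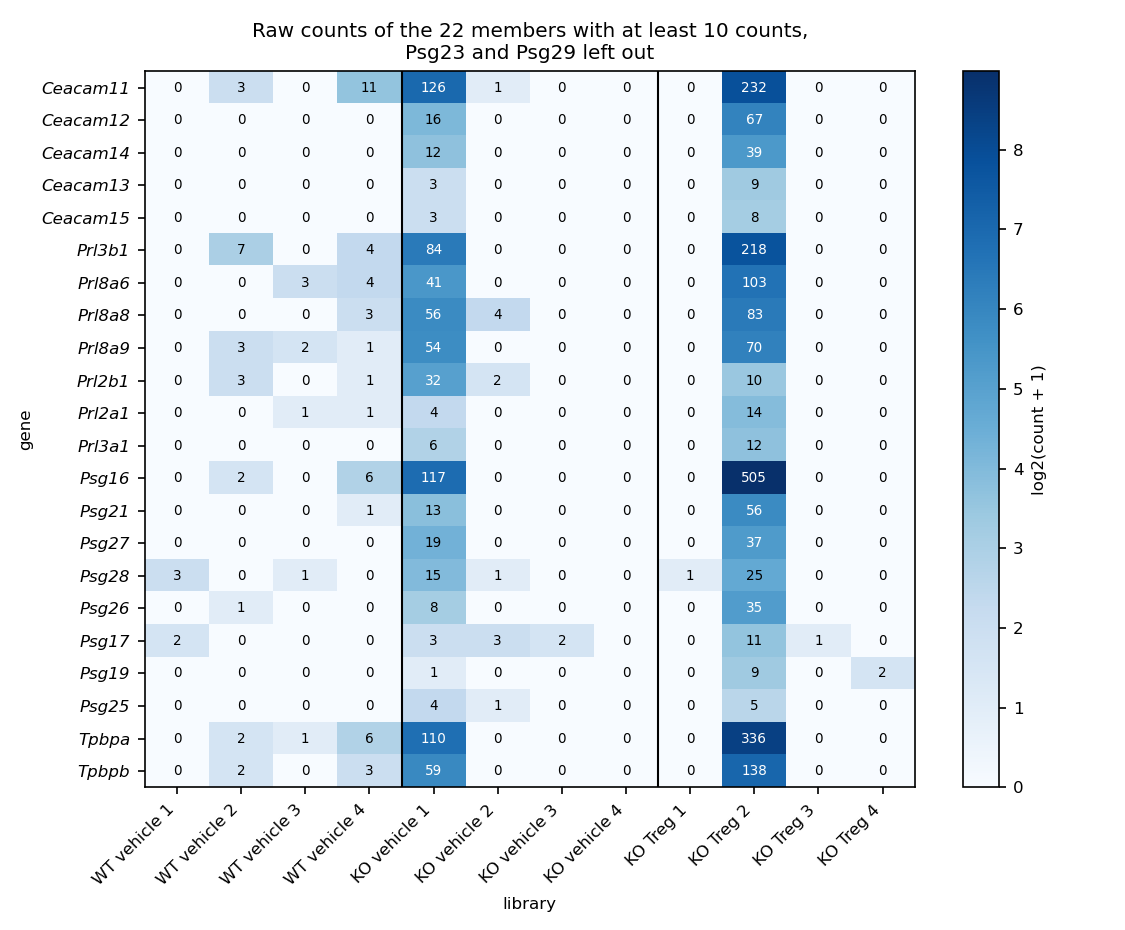
Heat map of the raw counts of 22 members (rows, those with at least 10 counts over the 12 libraries, Psg23 and Psg29 left out) in the 12 libraries (columns), coloured by log2(count + 1). The columns of KO vehicle 1 and KO Treg 2 are filled for all 22 genes, while the next fullest, WT vehicle 4, reaches 11 counts for Ceacam11. Most of the 22 genes reached 10 counts only through those 2 columns.

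Psg23 and Psg29 differed from all other members in having counts in every library. Psg23 (chr7:18606343-18616501, minus strand) had 158, 182, 108 and 221 counts in WT vehicle 1 to 4, or 12.7, 19.5, 19.4 and 28.0 CPM. In KO vehicle 1 to 4 it had 531, 132, 161 and 188 counts, or 60.6, 13.6, 18.1 and 19.1 CPM. In KO Treg 1 to 4 it had 158, 1452, 205 and 164 counts, or 18.7, 166, 31.8 and 19.9 CPM. The other 10 libraries thus held between 12.7 and 31.8 CPM, and KO vehicle 1 and KO Treg 2 lay above that range, in the same order as for the summed members.

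Psg29 (chr7:17203477-17215760, plus strand) repeated this at a lower count. It had 10, 11, 4 and 5 counts in WT vehicle 1 to 4, 29, 12, 11 and 5 in KO vehicle 1 to 4, and 16, 87, 6 and 19 in KO Treg 1 to 4. In CPM it was 3.31 in KO vehicle 1, 9.92 in KO Treg 2 and between 0.507 and 2.30 in the other 10. Psg29 had 3.0 times the CPM in KO Treg 2 that it had in KO vehicle 1 (95% exact counting interval 1.95 to 4.74), and Psg23 2.73 times (2.47 to 3.03).

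Sequence that transcript ends share with transcripts of other genes was then looked at. Libraries of this kind read the 3′ end of a transcript. The last 500 bases of the longest coding transcript of each gene were therefore taken from GENCODE M21. They were compared with the whole length of other genes' transcripts, so shared sequence need not lie near the end of those. This check was chosen after the counts were seen. Of the 470 words of 31 bases in the end of Psg23, 146 (31.1%) also occurred somewhere in transcripts of 49 genes that are not members. In Psg29 it was 106 words (22.6%) and 59 genes. Shared words were not particular to these 2 genes. Of the 45 members with a transcript, 27 (60%) shared a word with any other gene, beside 26.5% of all 21875 protein-coding genes. With non-members, 15 of the 45 shared words. By share of words Prl2c2 and Prl2c3 (49.1%), Psg20 (40.2%) and Psg28 (26.2%) were also high, with 1, 1, 3 and 10 such genes. Prl3b1, Tpbpa and Ceacam11 shared no words with non-members. No source used here gives how reads that map to several places were counted. Whether reads from other genes add to Psg23 and Psg29 was not tested, and their counts in the 10 low libraries are uncertain for this reason.

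**Figure D3:**
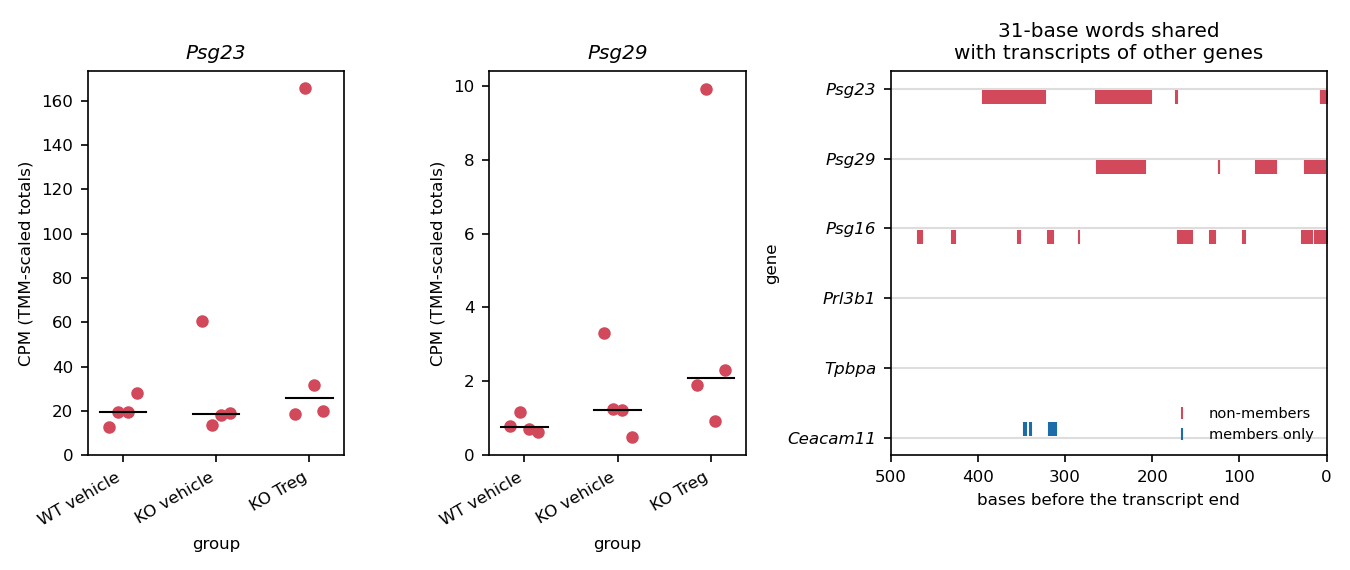
Left and middle, CPM of Psg23 and Psg29 by group, with a point for each of 4 libraries and a line at the median. Right, positions within the last 500 bases of 6 member transcripts of 31-base words that also occur anywhere in transcripts of non-members, or only in those of other members. Psg23 spans 12.7 to 166 CPM, KO vehicle 1 and KO Treg 2 are the highest points of their groups in both genes, and of the 6 transcripts drawn Psg23 (31.1%), Psg29 (22.6%) and Psg16 (16.0%) hold words shared with non-members.

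The 2 high libraries were compared gene by gene, as single libraries rather than as groups. The summed members without Psg23 and Psg29 had 2.57 times the CPM in KO Treg 2 that they had in KO vehicle 1 (95% exact counting interval 2.37 to 2.79). By family the ratio was 3.77 for Psg (3.20 to 4.46), 2.81 for Tpbp (2.35 to 3.36), 2.22 for Ceacam (1.84 to 2.69) and 1.86 for the prolactin family (1.60 to 2.15). The Psg interval lay above that of the sum and the prolactin-family interval below it. These intervals cover counting error and not the spread between animals.

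Among 21 members with at least 10 counts in the 2 libraries, the ratio was above 1 beyond its interval for 14, below 1 for 1, and not distinguishable from 1 for 6. The gene below 1 was Prl2b1, which was 3.20 times higher in KO vehicle 1 (1.53 to 7.30). Against the ratio of the sum, 16 genes could not be distinguished from it. Psg16 lay above it, at 4.32 (3.52 to 5.32). Ceacam11 at 1.84 (1.48 to 2.31), Prl8a8 at 1.48 (1.04 to 2.12), Prl8a9 at 1.3 (0.896 to 1.88) and Prl2b1 lay below it. The markers Tpbpa at 3.06 (2.46 to 3.82) and Prl3b1 at 2.60 (2.01 to 3.38) did not depart from it. Across these 21 genes the log2(count + 1) values of the 2 libraries had a Pearson r of 0.896 and a Spearman rho of 0.908, which describes these genes and is no test, since both libraries count the same transcripts.

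**Figure D4:**
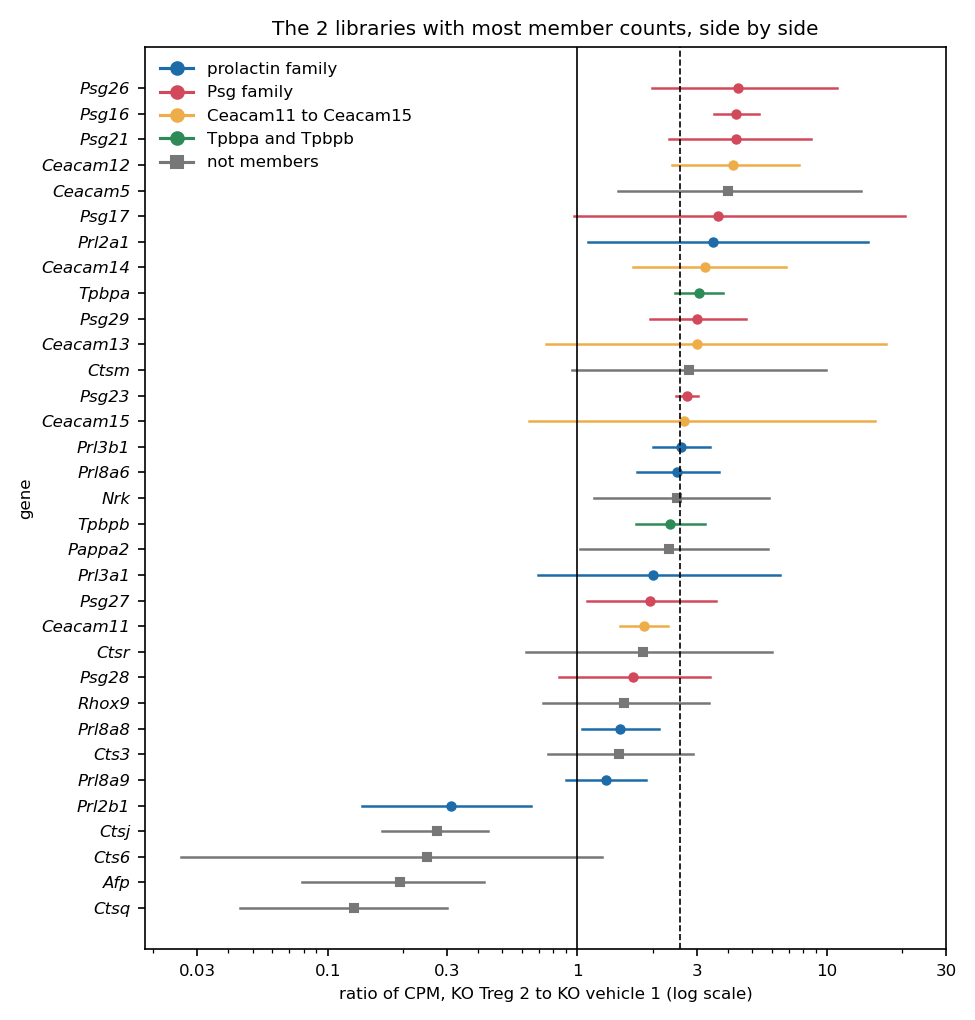
Ratio of CPM in KO Treg 2 to that in KO vehicle 1 on a log axis, with 95% exact counting intervals as bars, for members (circles, coloured by family, Psg19 left out) and for 11 other placental or yolk sac genes (grey squares), chosen after their values were seen. The solid line stands at 1 and the dashed line at 2.57, the ratio of the summed members, with Prl2b1, Ctsq, Ctsj and Afp left of 1 and most members right of it.

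Genes outside the 4 families gave a partial view of which placental layers were present. Placental cathepsins, proteases encoded by a rodent gene cluster, came to 19 CPM in KO vehicle 1 and 9.24 in KO Treg 2, and to between 0 and 0.826 in the other 10. The order of the 2 libraries was thus the reverse of that for the members, with 2.06 times more cathepsin CPM in KO vehicle 1 (1.57 to 2.72). Ctsq, a marker of the sinusoidal giant cells of the labyrinth, had 47 counts in KO vehicle 1 and 6 in KO Treg 2, a ratio of 7.83, and 0 to 3 elsewhere. Ctsj had 84 and 23, and 0 to 5 elsewhere. Cts3 had 17 and 25 and Ctsm 5 and 14, with ratios that their counting intervals could not tell from 1. Cts7 and Cts8 were at 0 in both.

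Further trophoblast genes were found in the same libraries, of which Rhox9, Nrk, Pappa2 and Hand1 were chosen after their values were seen. Ceacam5 had 5 and 20 counts in KO vehicle 1 and KO Treg 2, and Rhox9, a homeobox gene, 13 and 20. Nrk, a kinase of the spongiotrophoblast, had 10 and 25, and the protease gene Pappa2 9 and 21. Hand1, a transcription factor of giant cells, had 2 counts in each. In the other 10 libraries Ceacam5 had 0 or 1, Rhox9 and Hand1 0, Nrk 0 to 5 and Pappa2 0 to 4. The sums of the wider marker lists were carried by genes that all 12 libraries expressed and tell nothing of trophoblast. Lifr made up at least 87.3% of the giant cell list in each library, and Flt1 at least 73.3% of the spongiotrophoblast list, outside the members. KO vehicle 1 and KO Treg 2 ranked 1st and 2nd of the 12 by the first sum, 3rd and 4th by the second, and 3rd and 1st by the other placenta-rich genes, of which Cdkn1c and Igf2 made up 41.3% to 63.8%.

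Defining markers of the syncytial labyrinth were at or near 0 in the 2 libraries, and of the decidual members of the prolactin family Prl8a2 had at most 3 counts and Prl3c1 0. Syna had 1 count in each of the 2 libraries and Synb 0 in all 12, both being envelope-derived genes that fuse the syncytiotrophoblast. Gcm1 had 0 in KO vehicle 1, 2 in KO Treg 2 and 1 to 8 elsewhere. The summed labyrinth and decidua lists cannot show these layers, since Met and Tfrc made up at least 91.4% of the one and Dcn at least 91.0% of the other in every library. By these sums KO vehicle 1 ranked 9th and 12th and KO Treg 2 5th and 7th.

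Fetal and neighbouring tissues were looked at in the same way. Afp, made by yolk sac and fetal liver, had 41 counts in KO vehicle 1, 25 in WT vehicle 2, 8 in KO Treg 2 and 0 to 2 elsewhere, an order unlike that of the members. Of the Y-linked genes, Eif2s3y, Kdm5d and Uty were at 0 in all 12 libraries and Ddx3y had 0 to 3 counts. The sum of the yolk sac and fetal liver list was at least 99.7% Trf, which all 12 libraries expressed, so its ranks of 6th for KO vehicle 1 and 10th for KO Treg 2 tell nothing of those tissues. The uterine smooth muscle list ranked them 8th and 3rd. Smooth muscle Actg2, a gene of the uterine wall and of vessels, ran from 3 to 1289 counts, with 41 in KO vehicle 1 and 638 in KO Treg 2. Prl, the pituitary hormone gene, was at 0 in all 12. The summed globin, mammary, mesothelial and adipocyte lists ranked KO vehicle 1 2nd, 5th, 11th and 4th of the 12 libraries and KO Treg 2 8th, 9th, 7th and 9th. The globin sum was Hbb-bs alone, at 3 to 37 counts, and the mammary sum was 0 to 2.02 CPM. Ranks by the globin and mammary sums thus rest on few counts. Fabp4 made up at least 65.7% of the adipocyte sum. The part of other tissues in the member counts was not tested.

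The genes outside the families whose profile over the 12 libraries was most like that of the summed members were then listed. Likeness was the Euclidean distance between shares of CPM, among 13858 genes with at least 20 counts, whose median distance was 0.690. The nearest was Taf7l at 0.034, with 8 counts in KO vehicle 1, 19 in KO Treg 2 and 0 elsewhere. Ceacam5 (0.111), Ctsm (0.126), 1600014K23Rik (0.144), Rhox9 (0.153), Sct (0.166), Cts3 (0.169), Nrk (0.189), Pappa2 (0.207) and Rhox6 (0.241) followed. Sct, which encodes secretin, had 28 and 46 counts in the 2 libraries and 0 to 3 elsewhere. Doxl2, the 12th, had 34 counts in KO Treg 2, 1 in KO vehicle 1 and 0 in the other 10. The distances rose quickly after the first 10 genes, to 0.500 at the 20th.

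Between groups, no member passed the test. Only Psg23 and Psg29 had enough counts to enter it, and the other 44 were removed by the filter on low counts. In edgeR's quasi-likelihood test with Benjamini-Hochberg adjustment over 12175 genes, 0 of the 2 were called between KO vehicle and WT vehicle (34 genes or 0.279% of all tested), 0 between KO Treg and KO vehicle (0.00821%) and 0 between KO Treg and WT vehicle (0%). At an unadjusted p under 0.05 there were 0, 0 and 1 members, and the share of all genes under that level was not counted. Psg23 differed by 0.49 ± 0.79 (SE) on the log2 scale between KO vehicle and WT vehicle (edgeR adjusted p = 0.865). Between KO Treg and KO vehicle it was 1.09 ± 0.78 (edgeR adjusted p = 0.770), and between KO Treg and WT vehicle 1.58 ± 0.80 (edgeR adjusted p = 1). Psg29 gave 0.87 ± 0.74 (edgeR adjusted p = 0.696), 1.29 ± 0.65 (0.605) and 2.16 ± 0.70, the last with an unadjusted p of 0.00803 and an adjusted p of 1.

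These values rested on the 2 libraries. Without KO vehicle 1 and KO Treg 2 the difference of Psg23 between KO vehicle and WT vehicle was -0.23, between KO Treg and KO vehicle 0.47 and between KO Treg and WT vehicle 0.24. For Psg29 they were 0.22, 0.80 and 1.02. In that fit 3 of 12305 genes (0.0244%) were called between KO vehicle and WT vehicle, and 0 in the other comparisons, with no member among them in edgeR.

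With no filter on low counts, 35 members could be tested. In edgeR 0 were called in each comparison, where 0.231%, 0.00607% and 0% of all 16472 genes were. An unadjusted edgeR p under 0.05 was found for 0, 1 and 3 members, again without a count of all genes under that level. Tpbpa then differed by 3.48 ± 2.86 (SE) on the log2 scale between KO vehicle and WT vehicle (edgeR adjusted p = 0.740), and by 1.67 ± 1.95 between KO Treg and KO vehicle (0.872). DESeq2, which called more genes in all (1.93%, 0.58% and 0.00608% in the 3 comparisons), called 0 members, but gave an adjusted p to 1, 0 and 20 of them only.

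The maternal side of the prolactin signal was looked at through 32 genes of the prolactin receptor pathway and of Psg binding partners, of which 28 were tested. In edgeR 0 of the 28 were called in each of the 3 comparisons, beside 0.279%, 0.00821% and 0% of all genes tested. An unadjusted edgeR p under 0.05 was found for 4, 2 and 1 of the 28. The share of all genes under that level was not counted, so these numbers have no background to be read against. DESeq2 also called 0, beside its 1.93%, 0.58% and 0.00608% of all genes. Between KO vehicle and WT vehicle 13 of the 28 lay above 0, and 11 in both other comparisons. Their median log2 difference was -0.031, -0.092 and -0.063, beside -0.0039, -0.0018 and -0.0040 for all genes.

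Prlr, the prolactin receptor, was present in all 12 libraries. It had 48.7, 83.9, 72.5 and 82.3 CPM in WT vehicle 1 to 4, 111, 98.9, 79.4 and 84.5 in KO vehicle 1 to 4, and 75.5, 74.9, 88.8 and 72.8 in KO Treg 1 to 4. KO vehicle 1 thus had the highest Prlr value and KO Treg 2 the fourth lowest. The difference between KO vehicle and WT vehicle was 0.38 ± 0.16 (SE, log2; edgeR adjusted p = 0.350).

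Cish and Socs2 are feedback inhibitors induced by Stat5, and whether their levels go with the member counts was not tested. Cish had 137 CPM in KO vehicle 2, 86.2 in KO vehicle 1, 80.2 in WT vehicle 4 and 50.3 in KO Treg 2, and 14.7 to 39.7 in the other 8. Its difference between KO vehicle and WT vehicle was 1.03 ± 0.60 (SE, log2; edgeR adjusted p = 0.553). Socs2 had 88.9 CPM in KO vehicle 1 and 107 in KO Treg 2, within its range of 59.8 to 143 over the other 10 libraries. It differed by -0.56 ± 0.23 between KO vehicle and WT vehicle (edgeR adjusted p = 0.318).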

How the data were processed

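Gonadal white fat of 12 pregnant mice was profiled by 3′ RNA-seq with a QuantSeq kit after RNA extraction with a DNase step, per the labels' protocols, so a count stands for a read near a transcript's end and no length correction applies. The authors deposited raw counts per gene, 20632 symbols in each library, of which 4160 were 0 in all. TopHat2 2.1.1, HTSeq 0.6.1, SAMtools 1.3.1, BWA 0.7.12 and the build mm10 are named per the submitters' processing notes. No source used here gives their roles, the annotation, the strand setting or the handling of reads with several matches, so overlapping and near-identical genes can exchange counts.

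Members were taken by symbol. CPM used TMM-scaled totals in edgeR 4.0.16 (R 4.3.3). All 12 libraries entered 1 quasi-likelihood fit (robust, filterByExpr with a minimum count of 10, 12175 genes) with no covariate, and p-values were adjusted by Benjamini-Hochberg at 0.05. The SE is the log2 difference divided by the square root of F. DESeq2 1.42.0, other scalings, filters and left-out libraries were alternatives. Library shares carry Clopper-Pearson intervals, and ratios of 2 libraries exact binomial ones (SciPy 1.17.1). Members with at least 10 counts were described in every library, those with 1 to 9 by range, and the rest by name. Marker genes in 14 lists and 1 pathway list were read out in the same way, at most 4 named from a list, except where a gene was chosen after its values were seen (Afp, Actg2, Prlr, Cish, Socs2, the Y-linked genes, Syna, Synb, Hand1, Gcm1, Cts7 and Cts8). Nrk, Rhox9 and Pappa2 were also chosen after their values were seen. Sums leaving out Psg23 and Psg29 and the comparison of transcript ends with whole transcripts of other genes were added after the data were seen. The members and lists were chosen with earlier results of these data known. Replicate numbers were given in accession order, so no samples were paired. No library was left out of the main values.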

Additional observations from a re-analysis of the deposited data

Results flagged for a closer look

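Within groups of 4 libraries, values were set against Dixon's test, which asks whether the gap between an extreme library and its neighbour, as a share of the group's range, exceeds the 95% limit for 4 values. Chance alone passes this limit in about 1 in 20 groups, but only where values vary freely. Where 3 of the 4 libraries are at 0 the value is 1 whatever the count, so near 0 it carries no such rate. Both libraries named here had already been singled out by these counts. KO vehicle 1 passed it among the KO vehicle libraries for the sum of all members (0.977), the sum without Psg23 and Psg29 (0.983), the Prl (0.968), Psg (0.975), Ceacam (0.994) and Tpbp (1) sums, and for Psg23 (0.884). There, 20 of the 22 other members with at least 10 counts passed it singly, of which 16 were at 0 in the other 3 libraries.

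KO Treg 2 passed it in the KO Treg group for all members (0.968), without Psg23 and Psg29 (0.999), for Prl (0.995), Psg (0.998), Ceacam (1) and Tpbp (1), for Psg23 (0.911) and for Psg29 (0.847), with 21 of the 22 members singly, 19 of them at 0 in the other 3 libraries. In WT vehicle no sum passed it, and 4 of the 22 members did, each with counts in 1 library only (Psg17 2, Psg21 1, Psg26 1 and Prl8a8 3). These genes were counted in the same libraries, so the values are not independent of each other.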

How the results depend on the processing

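No member and no pathway gene was called in any comparison under the alternatives run (21 for each comparison), which covered RLE and upper quartile scaling, no filter, a minimum of 3 counts in 1 library, DESeq2, the number series as a covariate, a fit that was not robust, fits of 2 groups alone and left-out libraries. The lowest member adjusted p over them was 0.562 between KO vehicle and WT vehicle, 0.429 between KO Treg and KO vehicle and 0.816 between KO Treg and WT vehicle. Few of the 46 members entered most of these fits. With no filter 35 were tested, with a minimum of 3 counts 30, and in the other edgeR fits 1 to 3. DESeq2 tested 1, 0 and 20 in the 3 comparisons, so its 0 between KO Treg and KO vehicle was fixed in advance. The log2 difference of Psg23 turned in 3 cases: between KO vehicle and WT vehicle it was -0.23 without KO vehicle 1 and -0.23 without KO vehicle 1 and KO Treg 2, and between KO Treg and KO vehicle -0.25 without KO Treg 2. Leaving out each library in turn gave Psg23 -0.23 to 0.70, -0.25 to 1.82 and 0.24 to 1.88 in the 3 comparisons, and Psg29 0.22 to 1.16, 0.15 to 1.95 and 1.03 to 2.47. The number of members detected was 33 to 35 with a library left out, 20 with a minimum of 10 counts and 23 without both high libraries. The summed CPM of all members ran from 19.6 to 26.3 in WT vehicle, 18.6 to 64.6 in KO vehicle and 25.5 to 155 in KO Treg with a library left out, the lowest knockout values being those without KO vehicle 1 and KO Treg 2. In WT vehicle it was 1.15 for Prl alone, 0.428 for Ceacam alone, 0.437 for Tpbp alone and 2.46 without Psg23 and Psg29, the last added after the data were seen. No paired analysis was possible because the replicate numbers come from accession order and are in no label. At these depths a count of 0 allows 0.241 to 0.539 CPM.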
